A study of Caenorhabditis elegans with 2 samples.

Results

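The genes described here encode the endoplasmic reticulum (ER) translocon subunit sec-61.A and the 4 translocon-associated proteins trap-1, trap-2, trap-3 and trap-4, and the measurement is the binding of the C2H2 zinc finger protein D1046.2 near their 5' ends. These 5 genes, of 19985 protein-coding genes in all, were named for this description with their binding signal already known, so whether they had a peak, its signal, its rank and its position are given as descriptions without a test. Binding was mapped by ChIP-seq, in which chromatin is sheared, precipitated with an antibody and sequenced, in whole Caenorhabditis elegans L4 larvae aged 50 hours. All worms were of strain OP397, carried the integrated transgene wgIs397, which encodes D1046.2 fused to TY1, EGFP and 3xFLAG tags from a genomic clone together with unc-119(+), and had the unc-119(tm4063) mutation. The fusion was precipitated through its green fluorescent protein. There was 1 group of 2 biological replicates, called here replicate 1 and replicate 2, and no other group to compare them with.

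The Sec61 translocon is the channel through which newly made secretory and membrane proteins enter the ER while the ribosome is still translating them. Its alpha subunit forms the pore, and the beta and gamma subunits are small membrane proteins bound to it. The translocon-associated protein (TRAP) complex sits beside the channel and helps some signal sequences to open it, and the genes trap-1 to trap-4 encode its alpha, beta, gamma and delta subunits by their RefSeq products.

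Peaks were taken as near a gene when the summit, the base of highest enrichment, lay within 1000 bp of any of its annotated 5' ends. In the conservative list, which holds the 1546 peaks that passed between the replicates, 4 of the 5 genes had such a peak and trap-4 had none. Over all protein-coding genes 4.67% had one, but the genes were chosen from this list, so nothing is read from that difference. The optimal list of 1641 peaks gave the same 4 genes, where the background was 4.97%. Replicate 1 alone, with 619 peaks, also gave 4 (background 2.33%), and replicate 2 alone, with 463 peaks, gave 3 (background 1.66%), without trap-1. Signals below are the authors' deposited peak values, whose scale the sources used here do not state. Ranks are within a list. Where signals of replicate 1 and replicate 2 are set side by side, they come from 2 lists that may differ in scale. The worms were whole animals, so binding in fewer cells and weaker binding in each cell cannot be told apart. Read depth is unknown, since the files hold peaks and not reads.

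sec-61.A (WBGene00013311), which encodes the pore-forming alpha subunit, had the strongest peak of the 5 genes. Its signal was 429 in replicate 1, 362 in replicate 2 and 805 in the pooled call. The replicate values were both high, at rank 14 of 619 and rank 9 of 463 in their own lists, and the pooled peak ranked 12 of 1546. It was 8.42 times the median signal of the conservative list. The gene lies on the minus strand of chromosome IV from 14822540 to 14825264 (ce11) and has 2 annotated 5' ends. The peak covered 353 bp from 14824898 to 14825250, and its summit at 14825043 was in the 5' UTR, in exon 1, 221 bp downstream of the outer 5' end and 713 bp upstream of the inner one. Relative to the nearest 5' end, most promoter peaks lay upstream: 305 of the 793 peaks near a protein-coding gene (38.5%), and 14 of the 100 strongest of them, had the summit downstream of the nearest 5' end. The summit was at an offset of 221 bp in replicate 1 and of 199 bp in replicate 2. The next strongest of the 5 candidate regions near the gene had a pooled signal 13.2 times lower and did not pass.

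trap-2 (WBGene00020216), the gene for the beta subunit, was close behind. Its signal was 391 in replicate 1, 320 in replicate 2 and 714 in the pooled call. Both replicates placed it among their strongest peaks, at rank 18 and rank 16, and its pooled rank was 16, with 7.48 times the median signal. The gene is on the minus strand of chromosome X from 767023 to 768069. The peak had its summit outside protein-coding genes and was narrow, 223 bp where the caller's usual width was 296 bp. Of the 100 strongest peaks, 61 were likewise narrower than 296 bp. Its summit lay 202 bp upstream of the 5' end in the pooled call, with offsets of -193 bp in replicate 1 and -202 bp in replicate 2 (negative offsets are upstream). The other candidate regions at the gene had signals of at most 46.3, 15.4 times lower. The peak sequence is given because it holds, at its summit, a pair of words described below, shown in capitals. It is chrX:768162-768384 on the minus strand, in the direction of the gene, with the summit at base 114 and the capitals starting at bases 108 and 118, from the RefSeq genome (WBcel235, the ce11 sequence).
trap-2 peak: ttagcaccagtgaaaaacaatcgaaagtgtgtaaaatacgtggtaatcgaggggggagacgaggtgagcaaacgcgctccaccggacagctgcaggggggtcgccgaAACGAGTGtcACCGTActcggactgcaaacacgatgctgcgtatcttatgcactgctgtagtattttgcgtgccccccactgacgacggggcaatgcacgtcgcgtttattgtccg

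trap-3 (WBGene00021420), the gene for the gamma subunit, had a weaker peak than sec-61.A and trap-2, still well above the middle of the list. Its signal was 140 in replicate 1, 89.1 in replicate 2 and 231 in the pooled call. Replicate 1 was the higher, with rank 67 of 619 against rank 161 of 463 in replicate 2, and the pooled rank was 85, with 2.42 times the median signal. The gene is on the plus strand of chromosome IV from 2389445 to 2390259. The peak holds the 5' end of a noncoding RNA gene, Y38F2AR.16, at 2389097. The summit of the peak lay outside protein-coding genes, 301 bp upstream of the trap-3 5' end. The 3 calls placed that summit within 5 bp of each other. The next candidate region had a signal of 71.6, 3.23 times lower. Its sequence is given for comparison with that of trap-2: it is as rich in G and C, and at chrIV:2388996-2389291 on the plus strand it holds only the shorter word, at base 70, away from the summit at base 149.
trap-3 peak: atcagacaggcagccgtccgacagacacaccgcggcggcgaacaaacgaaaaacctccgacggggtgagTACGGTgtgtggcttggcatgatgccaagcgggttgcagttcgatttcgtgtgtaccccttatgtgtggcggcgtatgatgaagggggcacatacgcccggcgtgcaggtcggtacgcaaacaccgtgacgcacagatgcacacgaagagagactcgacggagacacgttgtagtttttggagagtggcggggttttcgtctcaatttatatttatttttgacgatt

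trap-1 (WBGene00022122), the gene for the alpha subunit of TRAP, had the weakest peak of the 4 genes, at the middle of the conservative list. Its signal was 59.8 in replicate 1, 44.0 in replicate 2 and 96.7 in the pooled call, which ranked 751 of 1546 and was 1.01 times the median. Only replicate 1 had it in its own list, at rank 483, with a -log10 IDR of 2.07, where IDR is the irreproducible discovery rate and a value of 2 or more passes. In replicate 2 the same region reached 1.23 and did not pass. The peak was on chromosome I from 2928004 to 2928299, with its summit outside protein-coding genes. That summit was 243 bp upstream of the 5' end of trap-1, which runs from 2928395 to 2929628 on the plus strand. The strongest other region at the gene had a pooled signal of 63.6, 1.52 times lower, and did not pass.

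trap-4 (WBGene00013238), the gene for the delta subunit, is on the plus strand of chromosome III from 11920735 to 11921586 and had no passing summit within 1000 bp in any of the 4 thresholded lists. It had 5 candidate regions. The strongest, in coding exon 2, 438 bp downstream of the 5' end, had a signal of 32.4 in replicate 1, 40.6 in replicate 2 and 67.8 in the pooled call. Its pooled -log10 IDR was 1.70, below the 2 that passes. The nearest passing peak was just outside the distance, at an offset of 1307 bp, with a signal of 71.6 and rank 1449. That summit lay in coding exon 1 of Y56A3A.22, 350 bp downstream of the 5' end of that gene. It was in the list of replicate 2, with a signal of 58.5, and in the conservative list but not in the optimal one. A peak 1066 bp downstream of the 5' end of trap-3, with a signal of 111, was outside the distance in the same way, at an offset of -310 bp from eri-5. Of the passing summits within the distance, the farthest was that of trap-3, at 301 bp.

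**Figure D1:**
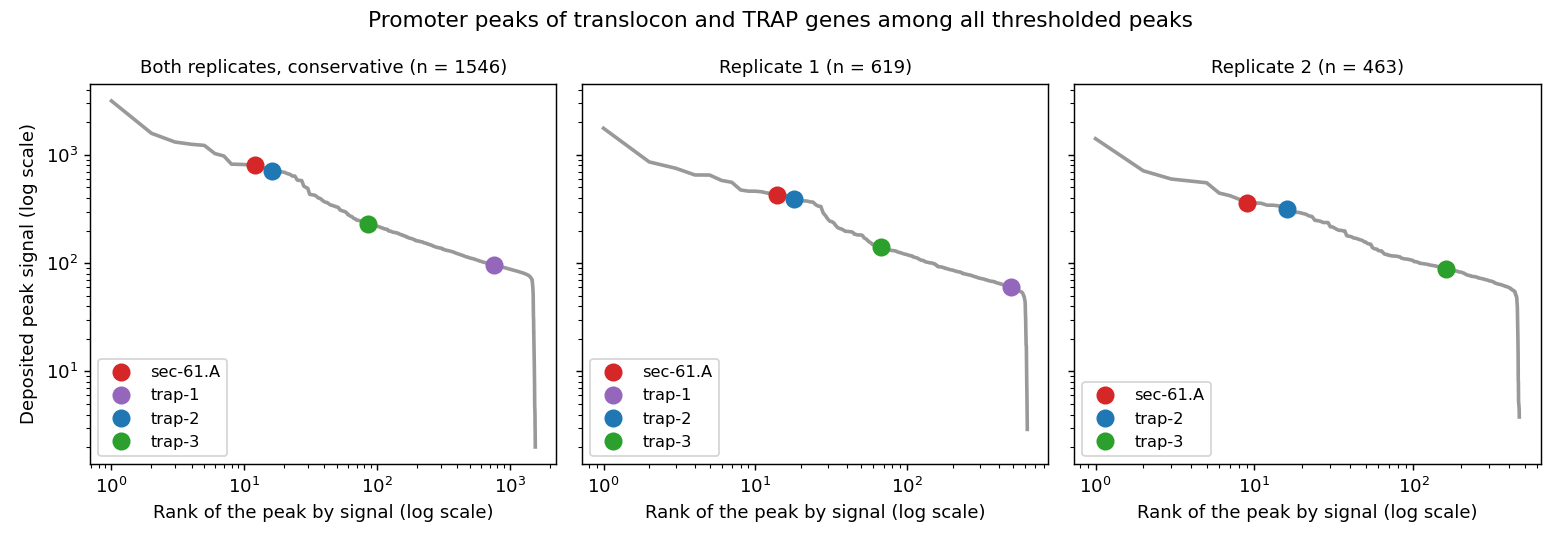
Deposited peak signal (log scale) against rank by signal (log scale) for all peaks of the conservative list and of each replicate's list, with the peaks of the named genes as coloured points. sec-61.A and trap-2 sit near the top of all 3 lists (pooled ranks 12 and 16), trap-3 at rank 85, and trap-1 at rank 751, with no point in replicate 2.

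**Figure D2:**
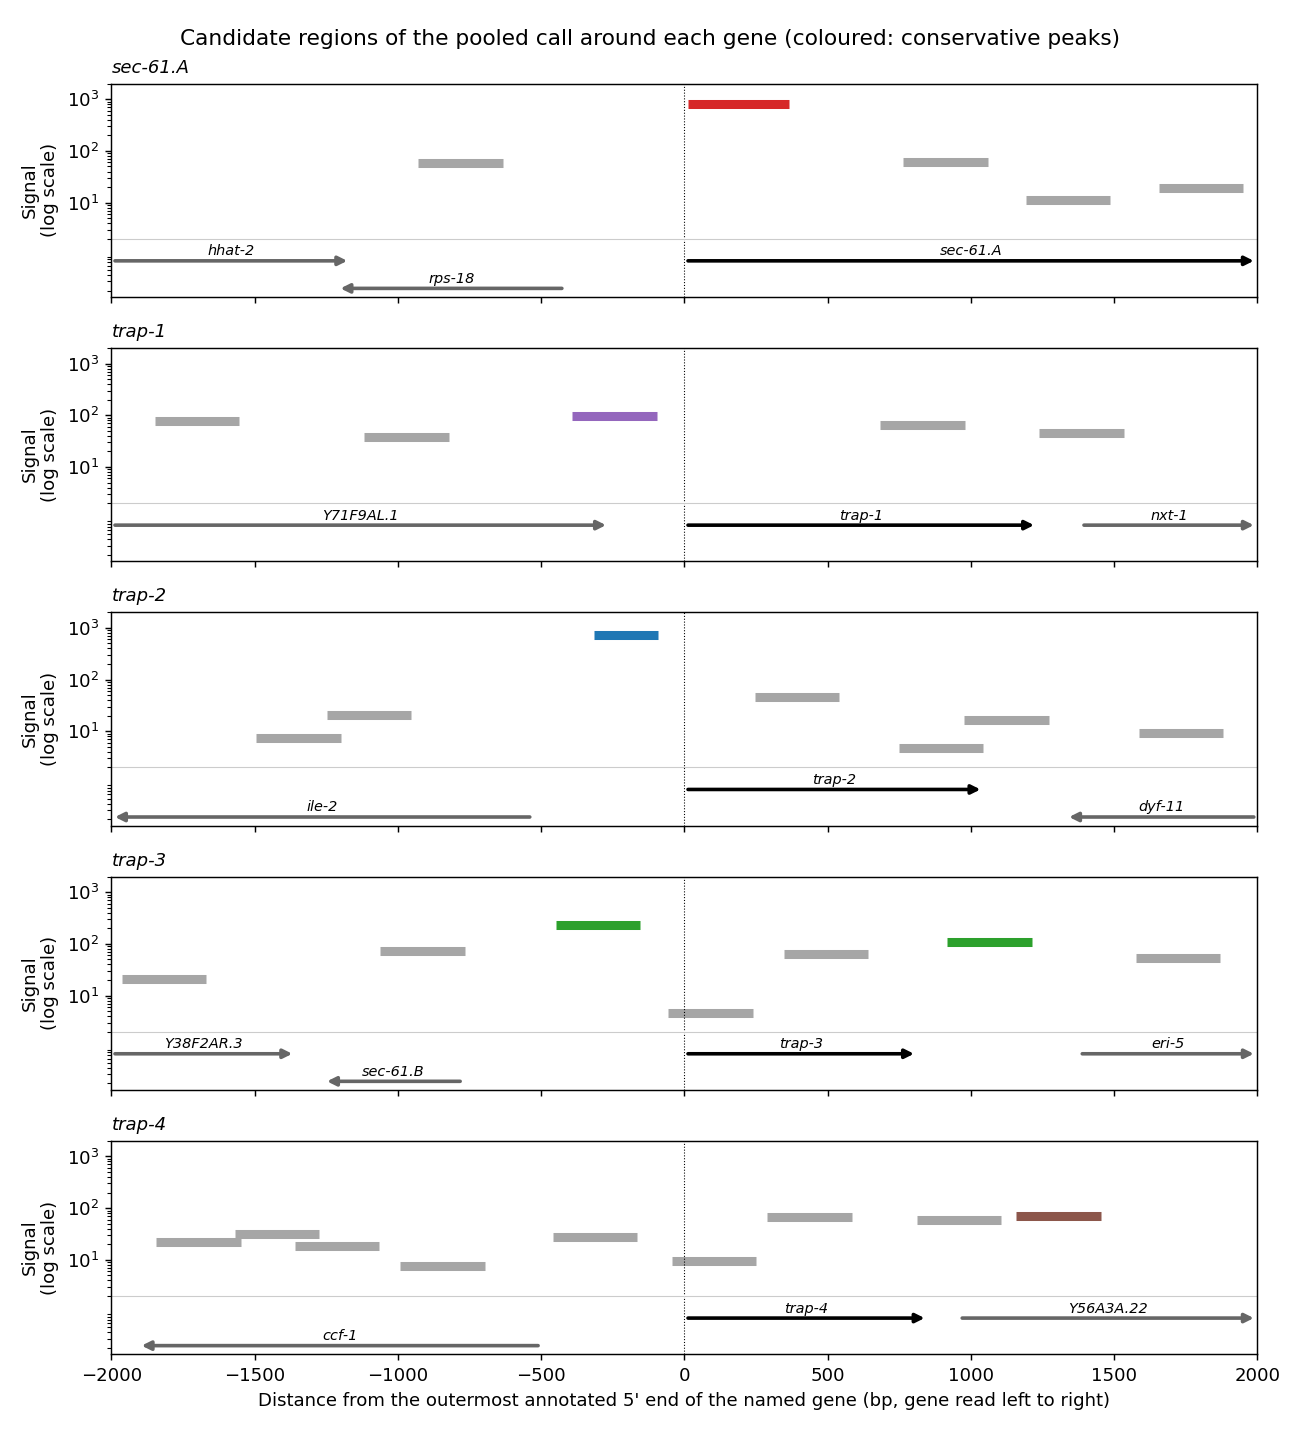
Candidate regions of the pooled call (bars at their signal, log scale) within 2000 bp of the outermost 5' end of each gene, with each gene read from left to right and arrows for protein-coding genes. Coloured bars are conservative peaks, among them the peaks 1066 bp and 1307 bp downstream of the trap-3 and trap-4 5' ends that fell outside the distance, and grey bars are regions that did not pass. The sec-61.A peak lies downstream of the outer 5' end, by 221 bp, and upstream of the inner one, by 713 bp.

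The order of the 4 genes was sec-61.A, trap-2, trap-3, trap-1 in the pooled call and in both replicates. With 2 replicates there is no test of neighbouring places in that order. Whether the signals of the 2 replicates share a scale is not known, which limits the comparisons between them that follow. sec-61.A and trap-2 were close: replicate 1 gave 429 for sec-61.A and 391 for trap-2, and the trap-2 value of replicate 1 was above the sec-61.A value of replicate 2, 362. The replicate values of trap-3 and of trap-1 did not overlap those of any other of the 4 genes. The signal was higher in replicate 1 for each gene, by 1.18 times for sec-61.A, 1.23 for trap-2, 1.58 for trap-3 and 1.36 for trap-1. Over 1530 conservative peaks with a region in both replicates the median ratio was 1.06, and the middle 90% ran from 0.653 to 1.66. Among the 99 such peaks of the 100 strongest the median was 1.21, close to the ratios of sec-61.A and trap-2. The ratio of trap-3 was above that of 92.5% of the peaks. The summits of both replicates were 22 bp apart for sec-61.A, 9 bp for trap-2, 1 bp for trap-3 and 31 bp for trap-1. The median distance was 25 bp over all 1530 peaks and 9 bp among the 100 strongest, above which sec-61.A lay.

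**Figure D3:**
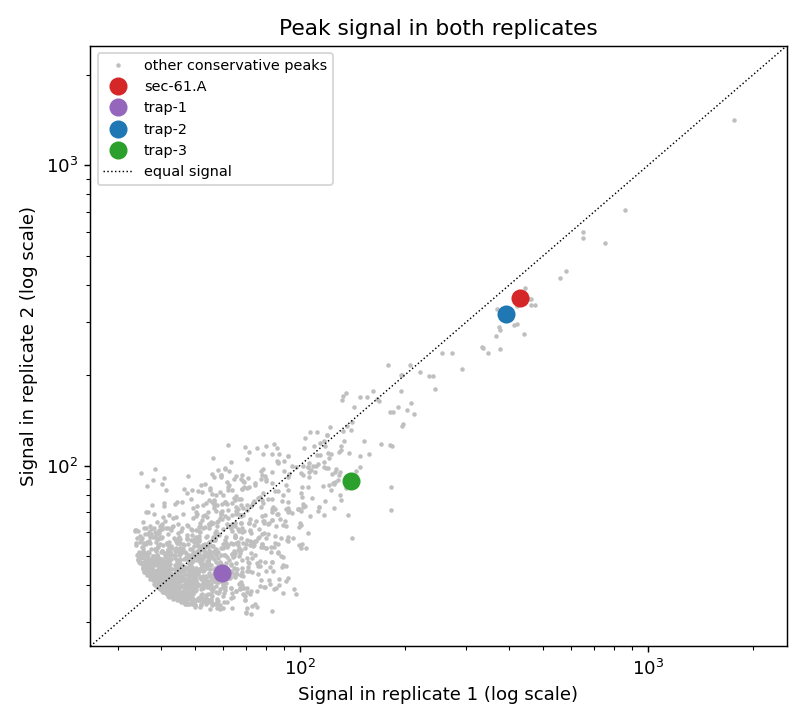
Signal of each conservative peak in replicate 1 and replicate 2 (both log scales), with equal signal as a dotted line and the peaks of 4 genes in colour. All 4 coloured points lie below the line, at ratios of replicate 1 to replicate 2 between 1.18 and 1.58, and trap-1 sits inside the dense cloud of weak peaks.

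A pair of words frequent at the strongest peaks lay near the summits of sec-61.A and trap-2, but not of trap-3 or trap-1. Among the 50 strongest conservative peaks other than those of these genes, the 8-letter word present within 50 bp of the most summits was AACGAGTG, in 19 peaks, and the most frequent 6-letter word was ACCGTA, in 35 (either strand counted). Pairs were searched only for ACCGTA following AACGAGTG on 1 strand, at most 10 bases after its end. ACCGTA began 2 bases after that end in all 18 pairs found. The words were thus chosen after the data were seen, from peaks that exclude the 4 described here, and no test was made of them. They were taken from the strongest peaks, so a link between the words and the signal is partly built into that choice. The full word, all 14 letters with those 2 free bases between them, lay at the peaks of sec-61.A and trap-2 and at neither trap-3 nor trap-1. In sec-61.A its centre was 18 bp from the summit, on the strand opposite to the gene and 239 bp downstream of the 5' end. In trap-2 it was 2 bp from the summit, on the strand of the gene. The best match within 50 bp had 5 mismatches of 14 at both trap-3 and trap-1, and 6 at the strongest trap-4 candidate. trap-3 and trap-1 each held the 6-letter word within 150 bp of the summit, but not within 50 bp, and no 8-letter word.

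The 30 bases around the word are set out below on the strand that reads AACGAGTG, with its letters in capitals, for sec-61.A (chrIV:14825011-14825040, plus strand), trap-2 (chrX:768255-768284, minus) and 3 peaks of nearly equal signal: those of the zinc finger gene T26A8.4 (chrIV:8432983-8433012, minus) and of the ribosomal protein genes rpl-6 (chrIII:7208067-7208096, plus) and rpl-21 (chrIII:8130511-8130540, minus). They are from the RefSeq WBcel235 genome, and they show how far the likeness goes beyond the 14 letters.
sec-61.A: cacgcaaAACGAGTGttACCGTAccttcga
trap-2: tcgccgaAACGAGTGtcACCGTActcggac
T26A8.4: cacgtgaAACGAGTGttACCGTActcctct
rpl-6: cacgtaaAACGAGTGtcACCGTAgtcagac
rpl-21: cacttgaAACGAGTGttACCGTActgtgtg

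These 3 peaks are from the 4 most alike in signal to sec-61.A and trap-2, and only peaks with the full word were to be set out. The sequence of the other, ndk-1, is not shown. The 3 peaks are among the 50 from which the words were picked, so that they hold the words is part of that choice. On the log10 signals of both replicates, over 787 promoter peaks, T26A8.4 (pooled signal 822) and rpl-6 (758) were the nearest to sec-61.A, and rpl-21 (691) and ndk-1 (698), which encodes a nucleoside diphosphate kinase, were the nearest to trap-2. All 4 held the full word within 50 bp of the summit, and all 4 are among those 50 peaks. The peaks nearest to trap-3, those of atx-2 (220) and vps-39 (223), and to trap-1, those of F49B2.3 (107) and Y17D7C.6 (96.7), are outside that set and held neither the 8-letter nor the 6-letter word there.

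The full word was rare outside the strongest peaks. Of the other conservative peaks in order of signal, with the 4 genes left out, 13 of the first 25 held it within 50 bp of the summit and 5 of the next 25, which are the peaks it was picked from. Of those not used to pick it, 2 of places 51 to 100 held it, 2 of places 101 to 200, 2 of places 201 to 400, 0 of places 401 to 800 and 0 of the last 742. Among the 105375 candidate regions that were not in the conservative list 2 held it, 0.00190%. The 6-letter word alone was commoner, in 3.26% of these regions, and the 8-letter word was in 0.202%. The 6 chromosomes held 32 full words in all on either strand. Of these, 27 lay in a conservative peak, 21 of them among the 50 strongest, and the median distance of the 27 to the summit was 14 bp. Unlike the shares above, these counts include the peaks of sec-61.A and trap-2. The words were picked within 50 bp of the summits of the strongest peaks, so these values partly follow from that choice. The gene nearest to the peak encoded a ribosomal protein, by its RefSeq product, in 12 of the 27. The share of such genes among strong peaks in general was not counted, so nothing is read from that number. Windows from 250 bp before to 50 bp after an annotated 5' end held it in 30 of 29773 cases (0.101%). A match is a description of these letters and not evidence of contact by D1046.2.

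**Figure D4:**
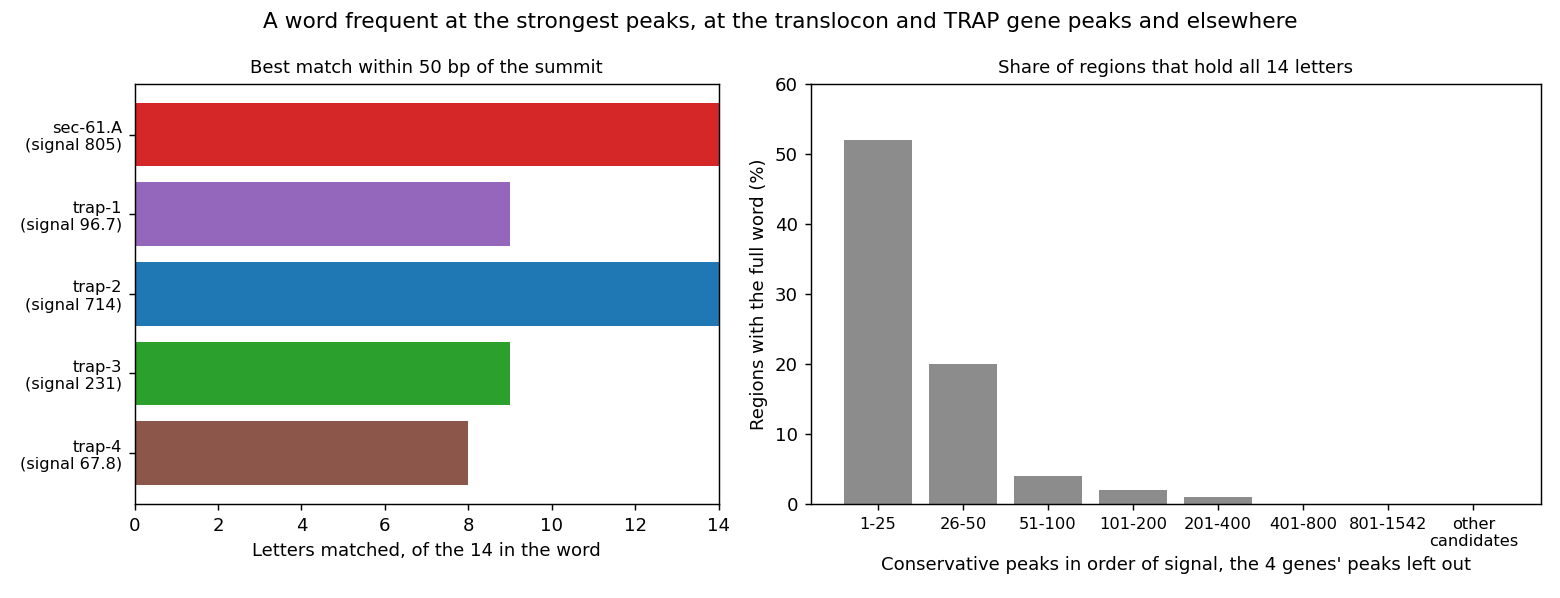
Left, letters matched of the 14 in the word, by the best match within 50 bp of the summit, at the peaks of 4 genes and at the strongest trap-4 candidate, with the pooled signal beside each name. Right, share of regions (%) that hold all 14 letters within 50 bp of the summit, for conservative peaks in order of signal without those genes and for the other candidate regions; it was 52.0% in the first 25 and 0.00190% in the other candidates.

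Other sequence features set the genes apart less. Within 50 bp of the summit the G and C content was 46.5% for sec-61.A, 59.4% for trap-2, 59.4% for trap-3 and 50.5% for trap-1, against a mean of 49.6% ± 8.30 (SD over 1546 peaks) in the conservative list and 40.3% in the other candidates. Of 18 further short words searched within 150 bp on both strands, among them GC-rich words and core promoter elements, 9 were present at any of the 4 peaks. sec-61.A had AGAGCG at its summit, 6 bp away, and trap-2 had GAGCGC, which overlaps 2 more of the words, 37 bp away. Of all conservative windows 16.5% held AGAGCG and 15.3% held GAGCGC. The peaks of all 4 genes lacked the tRNA gene B box GGGTTCGA, which 7.76% of conservative windows held. They lacked TGACGT, a core found in cAMP response elements and in unfolded protein response elements, which was in 8.02% of conservative windows. The letters CCACG, the right end of the mammalian ER stress element, was present at sec-61.A and trap-2, where 40.8% of conservative windows held it.

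The peaks of sec-61.A, trap-2 and trap-3 each had within 1000 bp the 5' end of a second protein-coding gene read in the opposite direction, and these files cannot assign the binding to either gene. The trap-2 and trap-3 peaks lay between the 2 genes, and the sec-61.A peak lay inside sec-61.A. Beyond the 5' end of sec-61.A lies rps-18, which encodes a protein of the small ribosomal subunit; the summit was at an offset of -636 bp from its 5' end, and the 5' ends of both genes are 415 bp apart. trap-2 shares its upstream region with ile-2, which encodes an L-type lectin-like protein of a family of cargo receptors between the ER and the Golgi; the offset was -325 bp, with 527 bp between the 5' ends. trap-3 shares its upstream region with sec-61.B, the gene for the beta subunit of the channel itself, at an offset of -469 bp and with 770 bp between the 5' ends. 2 noncoding RNA genes, Y38F2AR.16 and Y38F2AR.17, had 5' ends nearer to that summit, at offsets of -47 bp and 193 bp. The trap-1 peak had no other annotated 5' end within 1000 bp. In each of the shared peaks the translocon or TRAP gene had the nearest protein-coding 5' end. A second protein-coding gene on the other strand was within 1000 bp at 3 of the 4 peaks, against 167 of the 793 conservative promoter peaks (21.1%) and 8.95% of the other candidate regions near a gene. The 793 include these 4 peaks, and the genes were chosen with their binding known, so nothing is read from that difference. With a distance of 500 bp the second genes numbered 2, and with 250 bp they numbered 0.

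Around these genes in the secretory pathway, some listed genes had a peak and others had none. Lists of genes of that pathway, set by name with earlier results of these data known, matched 74 protein-coding genes. Of them, 14 had a conservative peak within 1000 bp. Without the 5 genes above it was 10 of 69, where 4.67% of all protein-coding genes had one, and nothing is read from that difference. Of these 10, 9 rest on other peaks, and that of sec-61.B is the trap-3 peak itself. All 3 Sec61 subunits had a peak. sec-61.G, for the gamma subunit, had a signal of 142 in replicate 1, 140 in replicate 2 and 280 in the pooled call, with an offset of -226 bp and rank 61, and sec-61.B had the peak it shares with trap-3. dnj-29 and tram-1, which encode a J-domain protein and a translocating chain-associated membrane protein, had none. Of 6 oligosaccharyltransferase genes, whose enzyme adds glycans to entering chains, dad-1 had a peak (161), and its summit was nearer to tre-1. None of 4 signal peptidase genes, of 5 genes of the ER membrane protein complex, of 10 COPII coat genes or of 2 genes for tail-anchored protein insertion had a peak. At the 4.67% of all protein-coding genes, lists this short would often hold none, so nothing is read from these absences. Some of these genes had candidate regions not far below the -log10 IDR of 2 that passes. Among them were sec-24.2 of the COPII coat (1.84) and spcs-2 of the signal peptidase (1.79).

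Of 15 genes for ER chaperones and folding enzymes 5 had a peak. hsp-3, which encodes an ER Hsp70 chaperone, had a signal of 127 in replicate 1, 97.6 in replicate 2 and 232 in the pooled call, with the summit at -66 bp. crt-1, for calreticulin, had a pooled signal of 150, and the protein disulfide isomerase genes pdi-3 and pdi-6 had 161 and 111, with the pdi-3 summit nearer to ubql-1. dnj-20, for a J-domain protein, had 90.8 and a summit at 416 bp. Of 12 genes for ER-associated degradation, cdc-48.1, whose ATPase extracts proteins from the membrane, had a peak with a signal of 156 in replicate 1, 170 in replicate 2 and 336 in the pooled call, which ranked 48. Of 5 genes for the unfolded protein response, atf-6 had a peak of 96.2, and it was higher in replicate 2, at 55.3, than in replicate 1, at 41.6. None of the peaks of these 10 genes held the full word within 150 bp of the summit; the best match, with 3 mismatches, was at pdi-6.

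**Figure D5:**
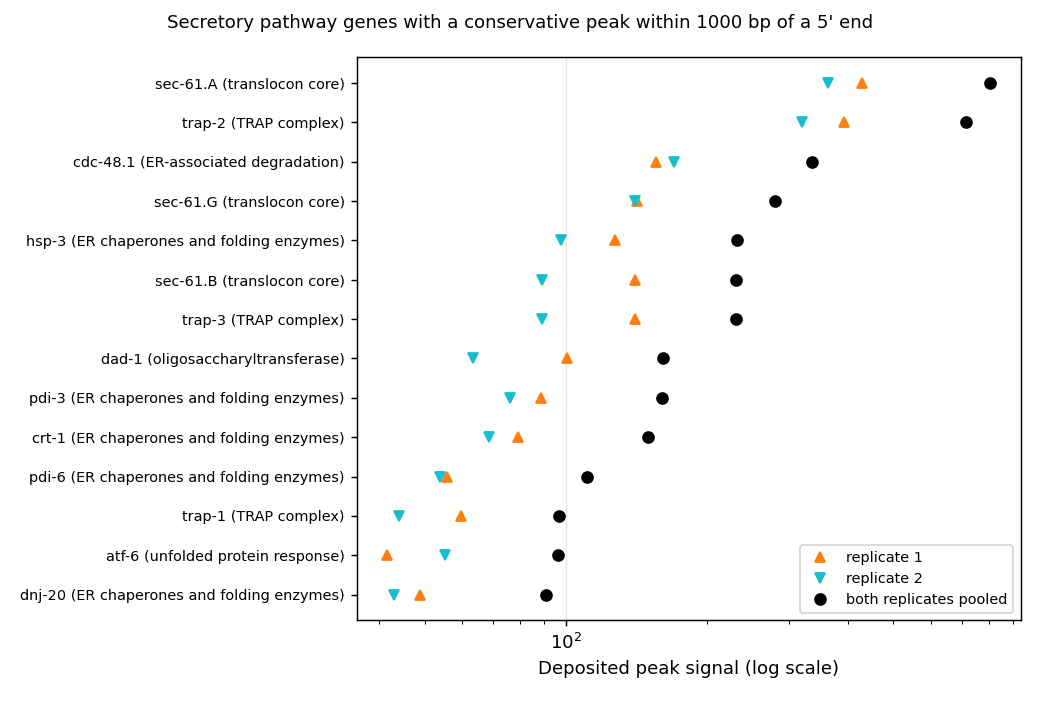
Deposited peak signal (log scale) of the 14 secretory pathway genes with a conservative peak, in each replicate and in the pooled call, in order of the pooled signal, with the list each gene came from. sec-61.A and trap-2 (805 and 714) stand above the next gene, cdc-48.1 (336), and trap-3 and sec-61.B share a single peak.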

How the data were processed

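The deposited files were peak lists on ce11: 4 thresholded and 4 ranked lists. Per the deposited files' columns, each peak has the authors' signal, a score, whose lowest value was 830 in the authors' thresholded lists, and a deposited -log10 global IDR, with 2 (an IDR of 0.01) as the lowest value that passed. The sources used here name neither the aligner nor the peak caller. The control was not used here. Per the submitters' file notes, the thresholded lists draw on a further file that the ranked lists do not use.

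Summits were joined to Ensembl release 115 5' ends within 1000 bp. The RefSeq WBcel235 annotation gave the same 5' ends for all 5 genes. Signals of a replicate are from its own ranked list, from the overlapping region with the nearest summit. Ranks are by signal. Other candidates are the 105375 ranked regions outside the conservative list. The genes and lists were chosen with earlier results of these data known. The genes named besides them are the listed pathway genes with a peak, neighbours within 1000 bp, and for each gene the 2 peaks most alike in both replicates; the words were chosen from the 50 strongest other peaks. Listed names whose RefSeq product is another protein were left out, and 18 listed symbols matched no gene; 1 listed gene is not reported here. No test was made, since there was 1 group. The functions that join summits to 5' ends and search words were tested on simulated data. Alternatives were the optimal list, each replicate alone, distances of 500 and 250 bp, the nearest gene only, the stronger 50% of peaks, RefSeq 5' ends and narrower windows. Python 3.11.15, numpy 2.4.6, pandas 2.3.3 and matplotlib 3.10.9 were used.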

Additional observations from a re-analysis of the deposited data

How the results depend on the processing

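The count of 4 genes with a peak stayed within 1.5 times under each alternative: it was 3 in replicate 2 alone, without trap-1, 3 at 250 bp, without trap-3, and 4 under the others. The 10 further pathway genes became 7 in either replicate alone, 4 at 250 bp and 7 with the nearest gene only, and were 9 to 11 otherwise; a single replicate's list is shorter, and a smaller distance admits fewer genes. The 3 shared promoters became 2 at 500 bp and 0 at 250 bp. The rank of trap-1 was 761 in the optimal list and 483 in replicate 1 alone, and it had no value in replicate 2 alone. Ranks in the lists of single replicates ran from 9 to 14 for sec-61.A, from 16 to 18 for trap-2 and from 67 to 161 for trap-3. Summit offsets in single replicates were 199 and 221 bp for sec-61.A, -210 bp for trap-1, -202 and -193 bp for trap-2, and -297 and -296 bp for trap-3. The full word was at 2 of the 4 peaks with 1 mismatch allowed or 150 bp searched, alternatives added after seeing the data. No paired analysis was possible because there was 1 group and no test between groups. Depth is unknown and limits what an absent peak, as at trap-4, can show.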
